A study of Mus musculus with 6 samples.

Results

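The genes described here encode the classical MHC class II chains H2-Aa, H2-Ab1 and H2-Eb1, the alpha chain H2-DMa of the peptide exchange factor, the invariant chain Cd74, and the class II transactivator Ciita. Members were all probe sets whose platform annotation gave exactly 1 gene symbol, that symbol being 1 of these 6 genes. This gave 14 of 34945 probe sets with 1 symbol, for 6 of 18193 genes. Livers of untreated mice were taken at postnatal day 14, 3 of genotype Mir137-/- and 3 of genotype Mir137+/+, and the RNA of each mouse was hybridised to its own Affymetrix whole-genome array. Mir137-/- mice carried a whole-body germline deletion of the microRNA, and both genotypes were born to heterozygous parents. The deletion was made in embryonic stem cells of another mouse strain, and the chimeric mice were crossed to C57BL/6. By the methods, most experiments used offspring of heterozygous littermates from that cross, which carry a mix of both strains. Strain alleles were not read here. Because the deletion is in every tissue, a difference in liver cannot be assigned to loss of the microRNA in liver. Mir137 had no probe set under that name, so the deletion itself could not be read from these arrays.

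Class II molecules present peptides from endosomes to CD4+ T cells. Their alpha and beta chains pair in the endoplasmic reticulum, where the invariant chain fills the groove and directs the complex to endosomes; proteases then trim it to a short fragment, which H2-DM exchanges for antigenic peptide. Transcription depends on CIITA, a coactivator without DNA binding of its own, which is held at class II promoters by RFX, CREB and NF-Y on conserved X and Y elements. In liver the molecules are known from dendritic cells, B cells and Kupffer cells, with lower levels on sinusoidal endothelium, and hepatocytes carry little. Mice of the H2b haplotype, such as C57BL/6, make no H2-Ea chain because its promoter is deleted.

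The promoters of H2-Aa and H2-Eb1 are shown because both genes lie in the class II region and were lower together. The letters are those of RefSeq (GRCm38.p6). Capitals mark the letters CTGATTGG, which hold the inverted CCAAT of the Y element, and 1 motif upstream of it, TGACGTCA or GATGATG. The H2-Aa window is chr17:34287774-34288073 on the minus strand with its annotated start at 34287823, and the H2-Eb1 window is chr17:34305617-34305916 on the plus strand with its start at 34305867.
H2-Aa: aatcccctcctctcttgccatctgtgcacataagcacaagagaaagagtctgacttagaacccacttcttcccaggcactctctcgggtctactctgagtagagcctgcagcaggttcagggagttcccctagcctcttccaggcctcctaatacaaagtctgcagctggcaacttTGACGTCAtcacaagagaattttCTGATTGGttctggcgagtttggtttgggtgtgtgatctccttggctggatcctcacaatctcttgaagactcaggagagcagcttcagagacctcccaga
H2-Eb1: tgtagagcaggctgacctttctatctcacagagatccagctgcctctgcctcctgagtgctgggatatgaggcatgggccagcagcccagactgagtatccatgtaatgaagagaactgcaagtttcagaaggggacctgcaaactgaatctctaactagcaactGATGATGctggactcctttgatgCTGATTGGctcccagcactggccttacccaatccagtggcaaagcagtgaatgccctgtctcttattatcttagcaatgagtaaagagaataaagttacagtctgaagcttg

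In H2-Aa, TGACGTCA began at -74 and CTGATTGG at -51 from the start, with 15 bases between them. In H2-Eb1, GATGATG began at -85 and CTGATTGG at -62, with 16 bases between them. Both strands were searched, and the shorter ATTGG is contained in CTGATTGG. Of 32851 promoters of the same length, 4.1% held CTGATTGG, 37.4% held ATTGG, 1.79% held TGACGTCA and 3.48% held GATGATG. CTGATTGG occurred together with either upstream motif in 68 promoters (0.207%). The motifs were spelled out after the H2-Aa and H2-Eb1 sequences had been seen. Their presence there was thus given in advance, and these shares do not measure how unusual it is. The 2 windows read for H2-DMa, with starts at 34122832 and 34125518, held none of CTGATTGG, TGACGTCA and GATGATG. The second held ATTGG at -198. Both starts lie inside the span given for this gene below, so the region before the first base of that span was not searched. Such matches describe letters in a window and no binding was measured.

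In Mir137-/- liver, transcripts of the classical class II chains and of the invariant chain were lower than in Mir137+/+ liver. A probe set was called at an adjusted p below 0.05 (limma, Benjamini-Hochberg over 45037 probe sets) and a fold above 1.5. By this rule 6 of 14 member probe sets were called lower and 0 were called higher, where 2.58% of all probe sets were called lower and 1.94% higher. At an unadjusted p below 0.05, 10 of the 14 passed, all lower, where 11.5% of all probe sets were lower at that p. The called probe sets belonged to H2-Aa (2 of 4), H2-Ab1 (2 of 3), H2-Eb1 and Cd74. In 10 of 14 probe sets every Mir137-/- array was below every Mir137+/+ array, where 13.9% of all probe sets showed this. Probe sets of the same gene were read on the same arrays and are not replicates, so the 14 are not separate readings. The median difference was -0.75 over the member probe sets and 0.01 over all probe sets (log2, Mir137-/- minus Mir137+/+). The directions held under every alternative for H2-Aa, H2-Ab1, H2-Eb1 and Cd74, but the calls did not. As the groups of these 9 probe sets did not overlap, leaving out arrays could not turn a direction. The 6 calls fell to 0 when Mir137-/- replicate 1 was left out, and likewise for Mir137+/+ replicate 1 or 3, and to 2 when Mir137-/- replicate 3 was left out. In whole liver, fewer cells of a type and less RNA per cell cannot be told apart.

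**Figure D1:**
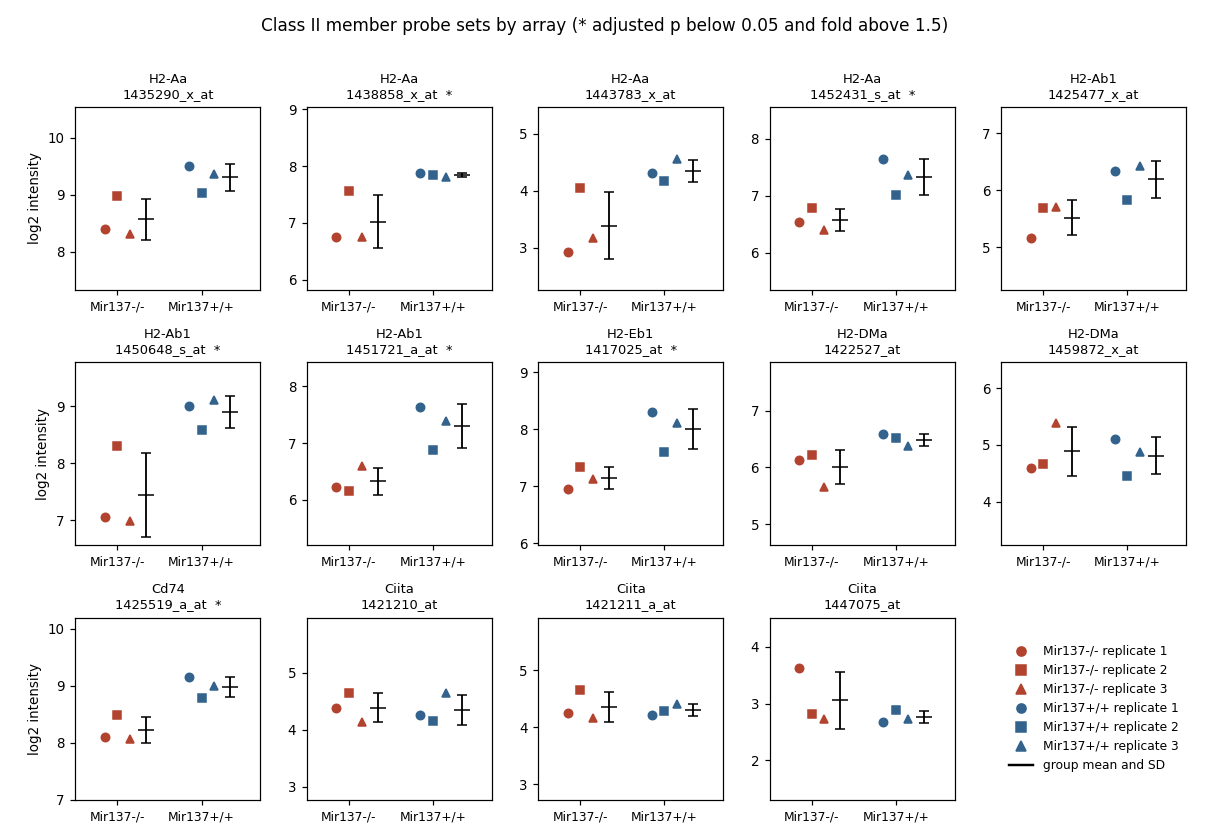
Log2 intensity of each of the 14 member probe sets on the 6 arrays, Mir137-/- in red and Mir137+/+ in blue, with 1 symbol per replicate and black bars for the group mean and SD (n = 3 each); every panel spans 3.2 log2 units and an asterisk marks the 6 called probe sets. All 9 probe sets of H2-Aa, H2-Ab1, H2-Eb1 and Cd74 have groups that do not overlap, whereas those of Ciita do.

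Cd74, the invariant chain (chr18:60803849-60812652, 1 probe set), had log2 intensities of 8.10, 8.48 and 8.07 on Mir137-/- replicates 1 to 3, against 9.15, 8.79 and 8.99 on Mir137+/+ replicates 1 to 3. The highest Mir137-/- array lay 0.31 below the lowest Mir137+/+ array. Mir137-/- livers averaged 8.22 ± 0.23 and Mir137+/+ livers 8.98 ± 0.18 (SD, n = 3 each). The difference was -0.76 (SE 0.14, 95% interval -1.09 to -0.43), or 1.69-fold lower, with an adjusted p of 0.0166 in limma, the lowest of the 14. Its difference ranged from -0.99 to -0.67 over the alternatives.

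The beta chain of I-A, H2-Ab1 (chr17:34263227-34269418), had the largest difference among the members. Its probe set 1450648_s_at read 7.06, 8.30 and 6.99 on Mir137-/- arrays and 9.00, 8.58 and 9.11 on Mir137+/+ arrays. Mir137-/- replicate 2 was far above its group and only 0.28 below the lowest Mir137+/+ array. The difference was -1.45 (SE 0.32, adjusted p = 0.0312), or 2.73-fold lower, and it was -1.87 without that replicate. Probe set 1451721_a_at read 6.23, 6.15 and 6.60 in Mir137-/- and 7.64, 6.88 and 7.39 in Mir137+/+, with a difference of -0.98 (SE 0.20, adjusted p = 0.0225). Here Mir137-/- replicate 2 was the lowest of its group, so its high reading on 1450648_s_at did not recur on this probe set. The remaining probe set, 1425477_x_at, read 5.16, 5.69 and 5.70 in Mir137-/- and 6.33, 5.82 and 6.42 in Mir137+/+. There Mir137-/- replicate 2 was close to the highest of its group. This probe set was not called (-0.67, SE 0.20, adjusted p = 0.0776), and its groups lay 0.12 apart.

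H2-Aa, the alpha chain that pairs with H2-Ab1 (chr17:34282744-34287823), had 4 probe sets, all ending in _s_at or _x_at, a suffix that Affymetrix gives to sets whose probes can match related transcripts. Probe set 1452431_s_at read 6.54, 6.78 and 6.40 in Mir137-/- and 7.64, 7.01 and 7.36 in Mir137+/+ (difference -0.76, SE 0.17, adjusted p = 0.0307). Probe set 1438858_x_at read 6.76, 7.56 and 6.75 in Mir137-/- and 7.87, 7.84 and 7.81 in Mir137+/+ (difference -0.82, SE 0.20, adjusted p = 0.0456). The Mir137+/+ arrays were nearly equal on this probe set (SD 0.03), and the spread lay in Mir137-/- (SD 0.46). Probe set 1435290_x_at read 8.40, 8.98 and 8.32 in Mir137-/- and 9.51, 9.04 and 9.37 in Mir137+/+. It just missed the call (-0.74, SE 0.19, adjusted p = 0.0528), and its groups lay 0.06 apart. The dimmest, 1443783_x_at, read 2.93, 4.05 and 3.18 in Mir137-/- and 4.31, 4.17 and 4.56 in Mir137+/+ (-0.96, SE 0.26, adjusted p = 0.0614). All 4 thus gave differences between -0.96 and -0.74, with 2 of them past the threshold.

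H2-Eb1, the beta chain of I-E (chr17:34305867-34316674), had a single probe set, which read 6.96, 7.34 and 7.13 in Mir137-/- and 8.30, 7.61 and 8.11 in Mir137+/+. Every Mir137-/- array was lower, with replicate 2 the nearest of each group to the other. Mir137-/- livers averaged 7.14 ± 0.19 and Mir137+/+ livers 8.01 ± 0.36 (SD, n = 3 each). The difference was -0.86 (SE 0.18, 95% interval -1.28 to -0.45, adjusted p = 0.0251), or 1.82-fold lower.

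H2-DMa, the alpha chain of the exchange factor (chr17:34119693-34139101), did not pass the test. Probe set 1422527_at read 6.13, 6.22 and 5.66 in Mir137-/- and 6.58, 6.51 and 6.37 in Mir137+/+. The groups did not overlap, and the difference of -0.48 (SE 0.15, 95% interval -0.83 to -0.14) had an adjusted p of 0.0988. Probe set 1459872_x_at read 4.60, 4.67 and 5.39 in Mir137-/- and 5.11, 4.46 and 4.87 in Mir137+/+, with a difference of 0.07 (SE 0.23, adjusted p = 0.895). The 2 probe sets of this gene disagreed, with a Pearson correlation of -0.51 over the 6 arrays. For the partner chain, probe sets 1418638_at and 1449580_s_at match both H2-DMb1 and H2-DMb2 and were not members. They gave -0.44 (adjusted p = 0.117) and -0.27 (adjusted p = 0.344).

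Ciita, the coactivator (chr16:10480014-10531064), had no called probe set, and its groups overlapped on all 3. Probe set 1421210_at read 4.38, 4.65 and 4.14 in Mir137-/- and 4.26, 4.15 and 4.65 in Mir137+/+ (difference 0.04, SE 0.17, 95% interval -0.35 to 0.42, adjusted p = 0.93). Probe set 1421211_a_at gave 0.06 (SE 0.14, 95% interval -0.26 to 0.37, adjusted p = 0.862) and 1447075_at gave 0.29 (SE 0.22, 95% interval -0.22 to 0.79, adjusted p = 0.506). On the last, Mir137-/- replicate 1 stood alone at 3.63, and the other 5 arrays read 2.68 to 2.89. The mean of each of these probe sets was below 4.89, the median over all probe sets. The intervals of 1421210_at and 1421211_a_at leave out a fall as large as that of any called member, and whether dim probe sets understate differences was not tested.

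**Figure D2:**
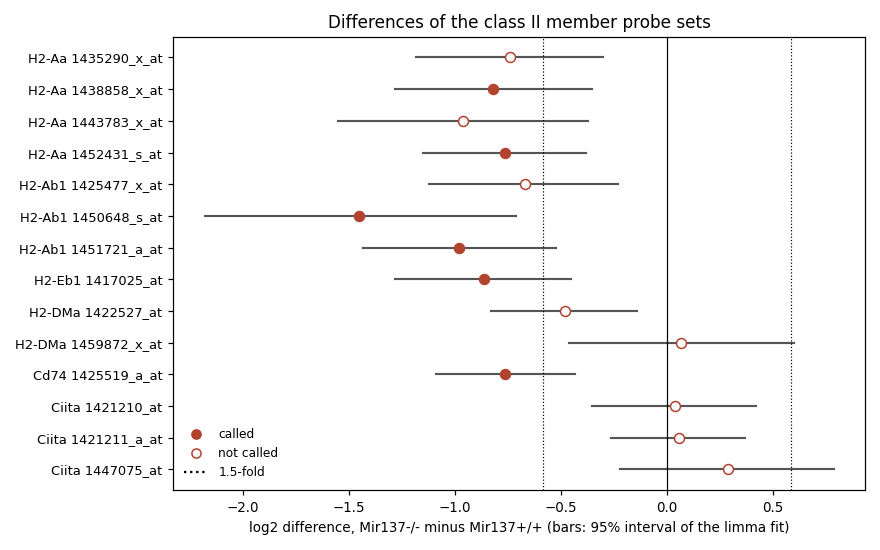
Log2 difference of each member probe set, Mir137-/- minus Mir137+/+, with the 95% interval of the limma fit; filled points are the 6 called probe sets and dotted lines mark a fold of 1.5. The intervals of the 9 probe sets of H2-Aa, H2-Ab1, H2-Eb1 and Cd74 lie below 0, and those of Ciita and of H2-DMa probe set 1459872_x_at include 0.

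At the level of genes, with the brightest probe set standing for each gene, 4 of 6 members were called lower (H2-Aa, H2-Ab1, H2-Eb1 and Cd74) and 0 higher, where 3.34% of 18193 genes were called lower and 2.34% higher. The adjusted p was 0.0463 for H2-Aa, 0.0304 for H2-Ab1, 0.0225 for H2-Eb1 and 0.0141 for Cd74. For H2-DMa it was 0.0811, and for Ciita 0.921. Averaging the probe sets of each gene also gave 4 called members.

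The 4 called genes varied together among the 6 arrays. Between their brightest probe sets the Pearson correlation was 0.91 to 0.98 over 6 arrays, a span that includes the genotype difference they share. H2-DMa correlated with them at 0.73 to 0.86, and Ciita correlated with the other members at 0.15 to 0.35. The probe sets of H2-Aa correlated with each other at 0.85 to 0.97, those of H2-Ab1 at 0.73 to 0.90 and those of Ciita at -0.14 to 0.83. Over the 9 probe sets of the called genes, Mir137-/- replicate 2 was the highest of its group in 7 and Mir137+/+ replicate 2 the lowest of its group in 8. Mir137+/+ replicate 1 was the highest in 6.

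By the correlation of the brightest probe set with the mean pattern of H2-Aa, H2-Ab1, H2-Eb1 and Cd74, 4000 other genes were ranked over the 6 arrays, those above the median intensity with an SD of at least 0.2. The 8 most alike were S100a1 (0.997), Mettl15 (0.991), Cth (0.990), Ift22, Noa1, Lyplal1 (each 0.988), Uros and Il34 (each 0.987). S100a1 read 9.18, 9.47 and 9.16 in Mir137-/- and 9.96, 9.63 and 9.83 in Mir137+/+. All 8 were lower by less than the fold threshold (-0.54 to -0.36). As 104 genes had a correlation above 0.95 and 6 points leave much room for likeness, this is a description of the arrays.

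The arrays also differed in ways that genotype does not name. Array medians lay at 4.88 to 4.91, and arrays correlated at 0.990 to 0.991 within Mir137-/-, at 0.993 to 0.994 within Mir137+/+ and at 0.982 to 0.988 between genotypes. Xist was high on Mir137+/+ replicates 2 and 3 (10.91 and 10.81), with 3.66 to 4.24 elsewhere, although the methods name male mice. Pancreas genes lay 3.14 above the Mir137+/+ mean on Mir137-/- replicate 2 and 1.94 above it on Mir137+/+ replicate 2, and skeletal muscle genes lay 4.99 above it on Mir137-/- replicate 1 (medians, log2). The pancreas arrays were those on which the class II genotypes lay nearest. Without both of them, 8 member probe sets were called lower, with differences of -2.03 for H2-Ab1 (1450648_s_at), -1.16 for H2-Eb1 and -0.99 for Cd74. Without the 2 arrays with Xist, or with sex as a term, Mir137+/+ replicate 1 alone stood for wild type and 0 were called. Differences with the sex term were -1.55 for H2-Ab1 (1450648_s_at), -1.16 for H2-Eb1 and -0.93 for Cd74, each at least as large as without it. The H2-Aa probe sets gave -1.07 to -0.85, with 1443783_x_at smaller than without the term (-0.92 against -0.96). Mir137+/+ replicate 1, on which these differences rest, was the highest of its group in 6 of the 9 probe sets of these genes.

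**Figure D3:**
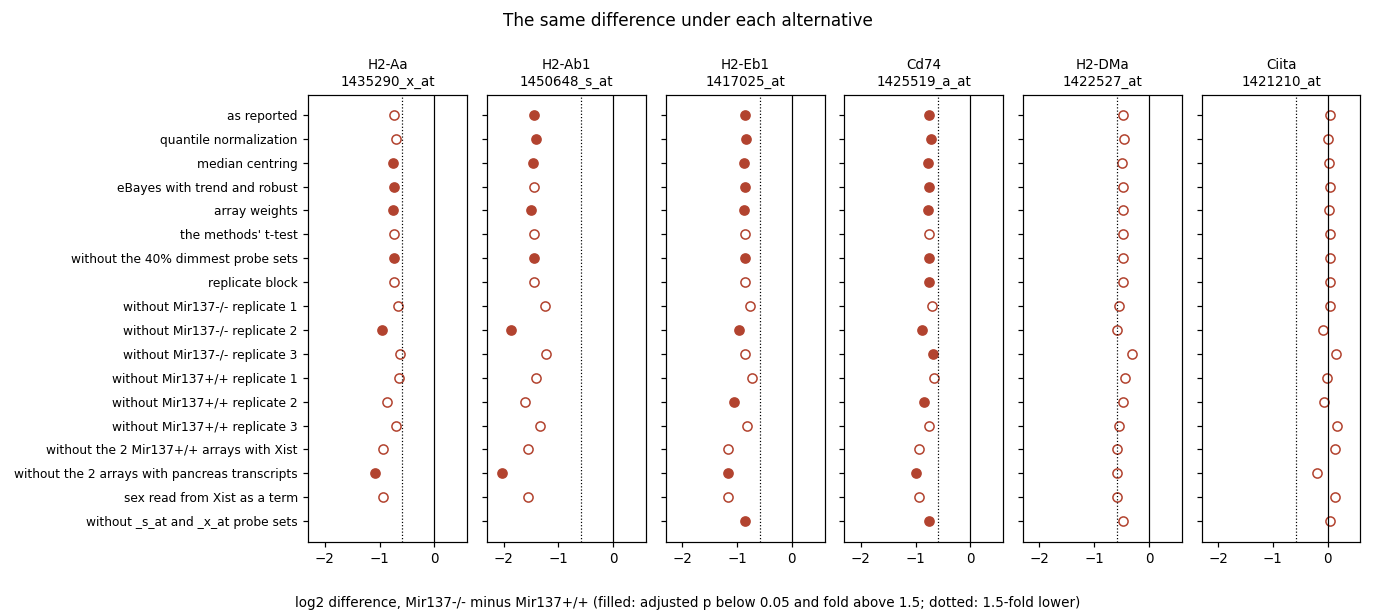
Log2 difference, Mir137-/- minus Mir137+/+, of the brightest probe set of each member under the reported setting (top) and the alternatives run on probe sets with the fold threshold; filled points pass an adjusted p of 0.05 and a fold of 1.5, and the dotted line marks 1.5-fold lower. H2-Aa, H2-Ab1, H2-Eb1 and Cd74 stay below 0 in every row, several rows lose the call, and Ciita lies on either side of 0.

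Other genes of the class II pathway were read at gene level (adjusted over 18193 genes), and few passed. Of 5 other class II chains and chaperones measured, 0 were called by limma, with a median difference of 0.00 and 1 gene at an unadjusted p below 0.05. H2-Ea, which mice of the H2b haplotype do not make, gave 0.03, and H2-Eb2, a further beta chain, -0.08. The haplotype of these mice was not read. H2-Oa and H2-Ob had means below 4.89, the median over all probe sets, and H2-DMb2 lay near it (4.92 in both genotypes). The 0 calls therefore say little about these genes. H2-Ob, the beta chain of H2-O, which restrains H2-DM, gave -0.38 (adjusted p = 0.062). Of 12 genes of peptide loading and invariant chain proteolysis, 0 were called (median 0.01), with 2 higher and 1 lower at an unadjusted p below 0.05. Ctss, cathepsin S, the main protease of the last step in invariant chain trimming, gave -0.27 (adjusted p = 0.0635), Ctsl 0.03 and Ctsb -0.02. Lgmn, an asparaginyl endopeptidase of endosomes, was higher by 0.53 (adjusted p = 0.0126) and Ctsz by 0.45 (adjusted p = 0.0133), both under the fold threshold. Ctss, Lgmn, Ctsz and H2-Ob were picked after their values were seen.

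Of 11 genes of the complex at class II promoters, 1 was called lower, where 3.34% of all genes were called lower. Rfxank, an RFX subunit, read 5.63, 5.72 and 5.48 in Mir137-/- and 6.23, 6.11 and 6.25 in Mir137+/+ (-0.59, SE 0.10, adjusted p = 0.0082). The other RFX subunits, Rfx5 and Rfxap, gave -0.11 and -0.03. Nfya, an NF-Y subunit, gave -0.52 (adjusted p = 0.0182) and Creb1 -0.44 (adjusted p = 0.0221), past the p but under the fold. The median of the list was -0.11, and 4 of the 11 were lower at an unadjusted p below 0.05. The single call came from a probe set ending in _s_at. It was lost, among other settings, under quantile normalization, with the mean of probe sets and without probe sets ending in _s_at or _x_at. It was also lost without the pancreas arrays, without Mir137-/- replicate 3, and without Mir137+/+ replicate 1 or 3. Of 14 genes that act on Ciita transcription, Irf2 and Irf4 were called lower. Irf2, which can bind the Ciita promoter induced by interferon, read 6.60, 7.05 and 6.92 in Mir137-/- and 8.12, 8.16 and 7.99 in Mir137+/+ (-1.23, adjusted p = 0.00143). Irf4, a factor of lymphocytes and dendritic cells, gave -1.35 (adjusted p = 0.00307). Ifng was dim on all arrays (2.11 to 2.66), and Irf1, an interferon-induced activator of Ciita, gave -0.38 (adjusted p = 0.0786). The list had a median of -0.11, and at an unadjusted p below 0.05, 4 of its genes were lower and 2 higher. The higher ones were Ifngr2 (0.31, adjusted p = 0.0813) and Jak1 (0.30, adjusted p = 0.0658). Irf4 and Ifng were among 4 genes of the list below the median of all probe sets.

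Class I presentation, which loads peptides of the cytosol, was lower in part. Of 16 measured genes 3 were called lower and 0 higher, 14 had negative differences, and the median was -0.38. Over all genes, 3.34% were called lower and 49% had negative differences. At an unadjusted p below 0.05, 11 were lower and 0 higher, and 11 had separate groups with Mir137-/- below. Over all probe sets, 11.5% were lower at that p and 13.9% had separate groups with Mir137-/- below. Psmb9 (-0.95, adjusted p = 0.00191) and Psmb8 (-0.63, adjusted p = 0.00774), subunits of the immunoproteasome, and Tap1 (-0.67, adjusted p = 0.00243), a peptide transporter subunit, were the called ones. The count of 3 was 1 with the mean of probe sets and without the pancreas arrays, 2 without Mir137-/- replicate 3 or Mir137+/+ replicate 3, and 0 without the Xist arrays or with sex as a term. Nlrc5, the class I counterpart of Ciita, gave -0.61 with overlapping groups (SE 0.23, adjusted p = 0.132). On the plot of gene lists by array, the class I list of each Mir137-/- array lay between -0.37 and -0.33, while the class II list spread from -0.89 to -0.41.

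**Figure D4:**
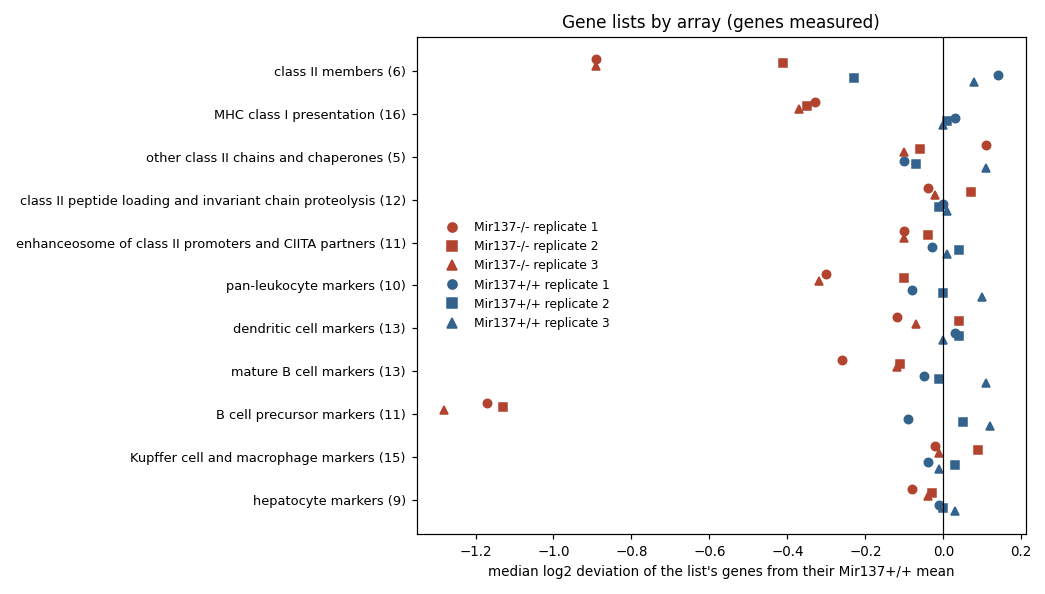
Median log2 deviation of each gene list from its Mir137+/+ mean on each of the 6 arrays, Mir137-/- in red above Mir137+/+ in blue, with the number of genes measured in parentheses. Class II members lie at -0.89, -0.41 and -0.89 on the Mir137-/- arrays and B cell precursor markers at -1.28 to -1.13, while Kupffer cell, dendritic cell and hepatocyte markers lie near 0.

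Markers of the cells that carry class II were set beside these values. Of 15 Kupffer cell and macrophage markers 0 were called by limma and 4 had an unadjusted p below 0.05 (3 higher, 1 lower), with a median of 0.04 and a summed level of 13.58 to 13.65 in Mir137-/- and 13.52 to 13.59 in Mir137+/+ (log2 of the summed intensities). Cd5l, secreted by Kupffer cells, gave 0.33 (adjusted p = 0.0574) and Slc40a1, the iron exporter, -0.11. Of 13 dendritic cell markers 0 were called and 1 was lower at an unadjusted p below 0.05 (median -0.12, summed level 9.05 to 9.23 in Mir137-/- and 9.21 to 9.24 in Mir137+/+), and 6 of them, among them the defining Itgax and Xcr1, were below the median of all probe sets. The brightest, Irf8 and Wdfy4, gave -0.13 and -0.15. Costimulatory genes of antigen-presenting cells had 0 called of 10 (median 0.12; 2 higher and 1 lower at an unadjusted p below 0.05), with Cd86 at 0.20 and Cd83 at 0.15.

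B cell markers moved in part with the class II genes. Of 13 genes listed as mature B cell markers 3 were called lower, where 3.34% of all genes were called lower. They were Ebf1 (-0.81), Cd79a (-0.66) and Cd79b (-0.65), the last 2 being chains of the antigen receptor complex. All 3 are also expressed in B cell precursors, so they do not mark mature cells alone. At an unadjusted p below 0.05, 5 were lower and 2 higher, the higher ones being Bank1 (0.41, adjusted p = 0.0248) and Ms4a1 (0.32, adjusted p = 0.0436), both under the fold threshold. None of the 3 calls was left without the Xist arrays, with sex as a term or without the pancreas arrays. The list had a median of -0.19 and summed levels of 9.39 to 9.43 in Mir137-/- and 9.54 to 9.71 in Mir137+/+. Pax5, Blk, Cr2, Fcer2a and Ebf1 were below the median of all probe sets. Of 11 B cell precursor markers 6 were called lower (Myb, Pou2af1, Rag1, Vpreb1, Igll1 and Vpreb3, -3.11 to -1.21), with a median of -1.21 and summed levels of 9.81 to 9.84 in Mir137-/- and 10.16 to 10.35 in Mir137+/+. At an unadjusted p below 0.05, 7 were lower and 2 higher, Cd93 (0.21) and Akap12 (0.41). Of 10 pan-leukocyte markers Coro1a was called lower (-0.69), with a median of -0.21 and summed levels of 10.92 to 11.12 in Mir137-/- and 11.15 to 11.32 in Mir137+/+. Of these markers 9 had negative differences, where 49% of all genes did. At an unadjusted p below 0.05, 4 of them were lower and 0 higher, where 11.5% of all probe sets were lower. Median deviations on Mir137-/- replicates 1, 2 and 3 were -0.89, -0.41 and -0.89 for class II members. They were -1.17, -1.13 and -1.28 for precursor markers and -0.26, -0.11 and -0.12 for mature B cell markers. For pan-leukocyte markers they were -0.30, -0.10 and -0.32. The part of these cells in the class II differences was not tested.

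For the remaining lists, 1 of 7 monocyte markers (Chil3, -2.68) and 1 of 11 T and NK cell markers (Il7r, -1.83) were called lower. Over all genes, 3.34% were called lower and 2.34% higher. The monocyte list had a median of -0.14, with 5 of 7 differences negative. The T and NK cell list had a median of 0.10, with 4 of 11 negative, so Il7r did not stand for its list. Of 10 stellate cell markers Rgs5 was called higher (0.80) and Lrat lower (-0.67). None of 12 endothelial, 7 cholangiocyte, 9 hepatocyte, 7 pancreas and 10 skeletal muscle markers were called by limma. At an unadjusted p below 0.05, 5 endothelial markers were higher and 1 lower, among them Kdr (0.48, adjusted p = 0.015) and Stab1 (0.39, adjusted p = 0.0347), picked after their values were seen. At that p, 1 cholangiocyte marker was lower, 1 hepatocyte marker higher and 1 lower, and 0 pancreas and muscle markers passed. The brightest endothelial markers Clec4g and Fcgr2b gave -0.02 and 0.24, the cholangiocyte markers Tff3 and Epcam -0.57 and -0.08, and Apoa1 of hepatocytes 0.01. Cela3b and Prss2 of pancreas read 9.02 and 8.56 on Mir137-/- replicate 2, and Acta1 and Ckm of skeletal muscle read 11.38 and 9.57 on Mir137-/- replicate 1. The hepatocyte list, which checks the labelled tissue, had summed levels of 16.05 to 16.10 in Mir137-/- and 16.10 to 16.11 in Mir137+/+, with Alb at 13.71 to 13.79 on all arrays.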

How the data were processed

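Liver RNA of 3 Mir137-/- and 3 Mir137+/+ mice was measured with 1 array per mouse, and groups came from the genotype in the labels. The authors deposited log2 intensities, 1 value per probe set and array. Their methods name RMA summarization with baseline to mean normalization, the submitters' processing notes name GCRMA, and the version is not given in the sources used here. The values ran from 1.22 to 13.79 as levels, with no detection calls, and were used without further normalization. Precision is set by the 3 mice per genotype, for which the smallest two-sided exact p is 0.1.

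Of 45101 probe sets, 64 controls were left out. By the platform annotation, 34945 had 1 gene symbol, 932 several and 9160 none. Differences (Mir137-/- minus Mir137+/+) were tested with limma (version 3.58.1, R version 4.3.3; lmFit and eBayes on 2 group means, no covariate), and a call took an adjusted p below 0.05 and a fold above 1.5, as in the methods. P-values are two-sided. Gene lists were read through the probe set with the highest mean for each gene. The fit was tested on simulated data.

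The members and all gene lists were chosen with earlier results of these data known. The text names all member probe sets, the called members of each list (at most 6 in each direction, otherwise its 2 brightest members) and the 8 genes most alike. Other names were picked after their values were seen. The lists of dendritic cell markers and of genes acting on Ciita share Irf8. Gene and promoter positions are RefSeq's (GRCm38.p6), and the 4 motifs were spelled out after the sequences had been seen. H2-Ab1 and Ciita had no promoter entry in the table. Alternatives were quantile normalization, median centring, eBayes with trend and robust, array weights, the methods' t-test, no fold threshold, leaving out the 40% dimmest or the _s_at and _x_at probe sets, gene-level values, the replicate number as a block, leaving out each array, and the Xist and pancreas arrays.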

Additional observations from a re-analysis of the deposited data

How the results depend on the processing

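The count of 6 member probe sets called lower stayed at 6 to 8 under quantile normalization, median centring, eBayes with trend and robust, array weights, no fold threshold, the filter on dim probe sets and without the pancreas arrays. At gene level 4 of 6 genes were called, with the brightest probe set or the mean. It was 3 without probe sets ending in _s_at or _x_at, which left 7 member probe sets. It was 0 by the methods' t-test after adjustment (7 before it), 0 without the 2 Mir137+/+ arrays with Xist and 0 with sex as a term. Leaving out 1 array gave 0 to 7. No setting gave a member called higher. By the adjusted t-test, 1 class I gene, 0 mature B cell markers and 0 genes of the promoter complex were called. With the replicate block it was 2 (Cd74 and H2-Ab1 1451721_a_at). Same-numbered arrays deviated together at correlations of 0.081, 0.211 and 0.0044, and different-numbered ones at -0.152 to 0.0783. Such correlations cannot show whether mice of the same number were paired.

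In 168 values, those of the reported setting included, H2-Aa, H2-Ab1, H2-Eb1 and Cd74 were never above 0 (-2.03 to -0.49). The groups of their 9 probe sets did not overlap, so leaving out or weighting arrays could not turn these signs. Signs turned only for probe sets that were not called. H2-DMa 1459872_x_at gave -0.22 both without the Xist arrays and with sex as a term, and -0.18 to 0.22 when 1 array was left out. Ciita 1421210_at gave -0.20 without the pancreas arrays and -0.09 to 0.18 when 1 array was left out. Ciita 1421211_a_at gave -0.10 and -0.09 to 0.15 under the same settings. The cause was not tested. With 3 mice per genotype, the calls depended on which arrays were kept, and 5 member probe sets lay below the median of all probe sets.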
